A study of Mus musculus with 12 samples.

Results

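The genes described here are 8 small GTPases of the Ras superfamily: the RGK genes Gem, Rem1, Rem2 and Rrad, the RASL11 genes Rasl11a and Rasl11b, and the RASD genes Rasd1 and Rasd2. They were chosen by name, and in part by the late rise of Rasl11a in these same libraries, and all 8 were found among the 41091 gene IDs of the count tables. RNA-seq was performed on acute hippocampal mini-slices, from which the dentate gyrus had been trimmed, of C57BL/6 mice, wild type and 2 to 3 months old. Chemical LTP (cLTP, here LTP) was induced over 10 min with 50 uM forskolin, which activates adenylyl cyclase, alone for 5 min and then together with 30 mM KCl and 10 mM calcium. Control slices received 0.2% DMSO for the same 10 min, and both kinds were frozen 1 hr or 3 hr later. This gave 4 groups of 3 libraries (1 hr control, 1 hr LTP, 3 hr control, 3 hr LTP), and within a time point the LTP and control library of the same number came from the same animal. The drugs were applied to whole slices and RNA came from whole slices. In such bulk tissue, fewer cells of a type and less RNA per cell cannot be told apart.

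RGK proteins are small GTP-binding proteins that bind the beta subunits of voltage-gated calcium channels and reduce calcium entry. In neurons Gem and Rem2 are known as activity-regulated genes, and Rem2 limits dendritic branching, while Rrad and Rem1 are best known from muscle and heart. Rasl11a has been linked to transcription of ribosomal RNA, and Rasl11b is its close relative. Rasd1 (Dexras1) was found as a dexamethasone-induced gene and binds an adaptor of neuronal nitric oxide synthase, and Rasd2 (Rhes) is best known from the striatum.

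In the GRCm38 assembly with GENCODE M21, all 8 are protein-coding genes. Gem lies at chr4:11704457-11714752 on the plus strand, Rem1 at chr2:152626951-152635198 on the plus strand, Rem2 at chr14:54476100-54480431 on the plus strand and Rrad at chr8:104628070-104631327 on the minus strand. Rasl11a lies at chr5:146845071-146847726 and Rasl11b at chr5:74195286-74199481, both on the plus strand. Rasd1 lies at chr11:59963181-59964944 on the minus strand and Rasd2 at chr8:75213944-75224113 on the plus strand. Only Rrad shared exonic bases with another annotated gene: 8.94% of its exonic length overlapped Gm33023 on the other strand. The sources do not say if strand was used in counting, so reads from these bases cannot be told apart. Exonic lengths ran from 1201 bases (Rasl11a) to 3176 bases (Rasd2).

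Promoter windows of RefSeq (GRCm38.p6), 300 bases from 250 before to 50 after the annotated start, matched 5 of the 8 genes by symbol: Rem1, Rem2, Rasl11a, Rasl11b and Rasd2. Gem, Rrad and Rasd1 had no entry. The 250 bases upstream of the start are shown for Rasl11a and Rasl11b, paralogs that both rose at 1 hr, and for Rem2, a gene that was not called at either time. Their positions are chr5:146844821-146845070, chr5:74195076-74195325 and chr14:54475850-54476099, all on the plus strand and written 5′ to 3′. Capitals mark a match to the core of the cAMP response element, TGACG on either strand.
Rasl11a: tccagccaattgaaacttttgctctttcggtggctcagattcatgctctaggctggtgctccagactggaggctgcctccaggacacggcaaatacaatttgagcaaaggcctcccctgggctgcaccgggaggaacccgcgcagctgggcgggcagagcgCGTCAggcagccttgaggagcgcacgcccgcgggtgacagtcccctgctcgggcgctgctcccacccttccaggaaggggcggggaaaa
Rasl11b: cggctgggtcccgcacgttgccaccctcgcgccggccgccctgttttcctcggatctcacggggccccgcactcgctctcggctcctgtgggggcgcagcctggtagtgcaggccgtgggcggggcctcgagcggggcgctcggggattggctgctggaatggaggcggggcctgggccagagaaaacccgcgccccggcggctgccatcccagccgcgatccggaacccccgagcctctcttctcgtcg
Rem2: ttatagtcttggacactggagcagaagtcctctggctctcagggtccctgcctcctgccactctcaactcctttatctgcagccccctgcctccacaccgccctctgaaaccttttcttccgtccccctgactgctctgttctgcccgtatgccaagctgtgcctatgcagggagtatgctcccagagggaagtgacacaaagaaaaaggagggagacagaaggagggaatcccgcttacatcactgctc
This core stood from -89 to -85 relative to the start of Rasl11a, on the opposite strand, and from 33 to 37 after the start of Rem1. It occurred in 20.8% of the 32851 windows of all genes, so its presence in 2 of 5 is a description of these windows. The full element TGACGTCA, of which the core is a part, was in none of the 5 windows and in 1.79% of all. Other motifs searched on both strands were the AP-1 site TGANTCA (7.81% of all windows), the EGR site GCGNGGGCG (5.55%), the E-box CACGTG (7.15%), the TATA box TATAAA (13.6%), the CArG box (1.63%) and the NF-kB site (8.46%). Of these only the NF-kB site matched, at 2 positions in the window of Rasd2. The absence of a match says only that these letters are not in these windows. GC content was 73% in the window of Rasl11b, 63.7% in that of Rasl11a and 54.7% in that of Rem2, against a median of 52.7% over all windows.

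Library totals ran from 37118382 to 50815001 counts, and levels are given as CPM, the counts relative to library size after TMM scaling of the 12 libraries together. In these units 3 counts were 0.0584 to 0.0791. Arc and Fos rose by 1.99 (SE 0.0839) and 1.97 (SE 0.0773) on the log2 scale at 1 hr. At 3 hr they rose by 1.3 (SE 0.0594) and 1.48 (SE 0.0828). Hprt, the reference gene of the study, had log2 fold changes of -0.08 and -0.21 and was not called. The study made libraries only from samples in which Arc had risen and Hprt was unaltered by qPCR. The values of Arc and Hprt therefore follow in part from that choice and are no independent check of the induction. The 8 markers of CA pyramidal neurons were above 3 counts in every library and summed to between 2710 and 4240 CPM in the fitted libraries. The 4 markers of dentate granule neurons summed to between 120 and 221 CPM, and the 7 striatal markers to between 32.3 and 43.5 CPM. The study set 1 hr control replicate 2 aside as an outlier of its clustering. It was left out of the tests here, so the 1 hr comparison had 2 control and 3 LTP libraries, and its values are given beside the others. The chi-square per df of its counts, over genes, was 47 and 63.3 against the other 1 hr controls, where counting noise alone gives about 1. Among the libraries kept in the tests, 3 hr LTP replicates 2 and 3 differed most from each other (85.6), and replicates 1 and 3 of that group by 44, while all other kept pairs of a group lay between 9.49 and 24.1.

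Levels were compared between the genes per kb of exonic length. In 3 hr controls Rasd1 was highest with 25.5 ± 1.70 CPM per kb (SD, n = 3), followed by Rasl11b with 24.8 ± 1.22, and these 2 overlapped. Gem (18.0 ± 2.27) came next and was separated from both neighbours in the order. Rasd2 (13.0 ± 0.611), Rasl11a (12 ± 1.42) and Rem2 (11.5 ± 0.604) followed, and neighbours among these 3 overlapped. Rrad had 1.90 ± 0.148 and Rem1 0.168 ± 0.0359 CPM per kb, each apart from its neighbours. In 3 hr LTP slices the order was led by Rasl11a (48.8 ± 1.71) and Gem (40.1 ± 2.94), which did not overlap, followed by Rasd1 (32.4 ± 4.71) and Rasl11b (28.7 ± 5.68), which did. The lengths come from M21, while the tables used older versions of 6 of the 8 gene models, so levels between genes are approximate. The lengths also include untranslated regions. The paper's expression analysis used reads in coding regions, and whether the deposited counts are limited to these was not established.

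**Figure D1:**
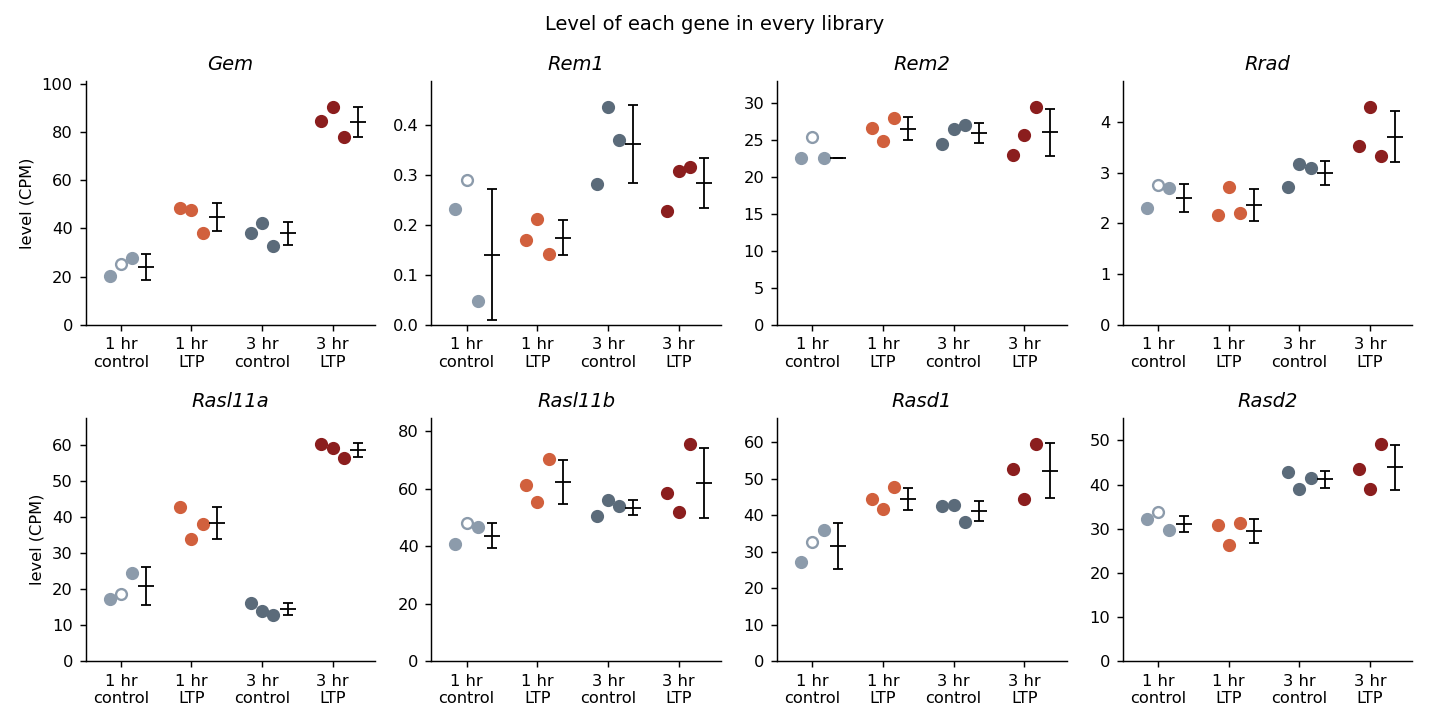
Level of each of the 8 genes in CPM (y axis, linear from 0) in the 12 libraries (points) by group, with the mean and SD of the fitted libraries (bar). The open point is 1 hr control replicate 2, which was left out of the tests and of the mean. Gem, Rasl11a and Rasd1 had all LTP libraries above all controls of the same time point, and Rem1 stayed under 0.5 CPM.

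The early response was taken from the 1 hr slices, LTP against control. Of the 8 genes, 7 passed the filter on low counts, and 4 of these rose: Gem, Rasl11a, Rasl11b and Rasd1 (quasi-likelihood test of edgeR, called at an adjusted p under 0.1 by Benjamini-Hochberg with a fold change over 1.2). None fell. Over all 17736 genes tested, 0.778% rose by the same criteria. The fitted LTP libraries lay entirely above the fitted controls for 5 of the 7, against 10.6% of all genes. Both counts include Rasl11a, which was chosen in part for its later rise with LTP, so they are not free of that choice.

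Among the RGK genes, Gem, which inhibits calcium channels, had 20.3, 25.3 and 27.9 CPM in 1 hr controls 1, 2 and 3 and 48.5, 47.6 and 38.1 CPM in the LTP libraries. Every LTP library was above every control, also with control 2 included. The log2 fold change was 0.90 (SE 0.130, edgeR adjusted p = 0.00251), and within animals 1, 2 and 3 the log2 ratio of LTP to control was 1.25, 0.91 and 0.45. Rem2 had 22.5, 25.4 and 22.5 CPM in controls and 26.6, 24.8 and 28.0 CPM in LTP libraries. The groups were apart without control 2 and overlapped with it, and the log2 fold change of 0.25 (SE 0.0875) was not called (edgeR adjusted p = 0.509). Rrad ranged from 2.30 to 2.75 CPM in controls and from 2.16 to 2.72 CPM in LTP libraries, and the groups overlapped (log2 fold change -0.07, SE 0.208). Rem1, with 2 to 14 counts in controls and 6 to 8 in LTP libraries, did not pass the filter.

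Rasl11a had 17.2, 18.6 and 24.6 CPM in 1 hr controls and 42.9, 34.1 and 38.2 CPM in LTP libraries. All LTP libraries were above all controls. Its log2 fold change was 0.89 (SE 0.132, edgeR adjusted p = 0.00307), and the ratios within animals were 1.32, 0.87 and 0.63. Rasl11b had 40.7, 48.3 and 46.9 CPM in controls and 61.3, 55.5 and 70.5 CPM in LTP libraries, again without overlap. Its rise was smaller, with a log2 fold change of 0.52 (SE 0.0996, edgeR adjusted p = 0.0235). The difference between the rises of the paralogs was not tested.

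Rasd1 had 27.1, 32.7 and 35.9 CPM in 1 hr controls and 44.3, 41.6 and 47.7 CPM in LTP libraries. The groups did not overlap, and the log2 fold change was 0.51 (SE 0.107, edgeR adjusted p = 0.0484). Rasd2, its paralog, had 32.3, 33.7 and 29.8 CPM in controls and 30.8, 26.4 and 31.4 CPM in LTP libraries. These overlapped, with a log2 fold change of -0.06 (SE 0.0923, edgeR adjusted p = 0.962).

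The calls of Gem and Rasl11a held in every alternative run, with log2 fold changes between 0.69 and 1.15 for Gem and between 0.65 and 1.17 for Rasl11a and both ends set by the control left out (replicate 1 or 3). The calls of Rasl11b and Rasd1 were lost without 1 hr control 1 (log2 fold changes 0.42 and 0.32, edgeR adjusted p = 0.496 and 0.755) and in a model of all 4 groups (0.51 and 0.50, edgeR adjusted p = 0.240 and 0.215), that of Rasd1 also without 1 hr LTP 1 (0.51, edgeR adjusted p = 0.193), and that of Rasl11b with control 2 included and animal as a block (0.47, edgeR adjusted p = 0.113). Over all alternatives the adjusted p ran from 5.02e-07 to 0.496 for Rasl11b and from 5.96e-06 to 0.755 for Rasd1. Markers of other cell types were measured in the same comparison. The 6 mural markers summed to 162 to 164 CPM in the fitted controls and to 136 to 151 CPM in LTP libraries, with Myh11 called lower, and the 6 endothelial markers to 103 to 113 and 88.7 to 93.3 CPM. The 6 oligodendrocyte markers summed to 5870 to 7360 CPM in the fitted controls and 7120 to 8450 CPM in LTP libraries, with log2 fold changes from 0.15 to 0.26, of which 0 were called (edgeR, 3 at an unadjusted p under 0.05). Their part in the results was not tested.

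At 3 hr all 8 genes passed the filter. Rasl11a, chosen for its rise in this comparison, had 16.3, 14 and 13.0 CPM in controls 1, 2 and 3 and 60.4, 59.2 and 56.4 CPM in LTP libraries. Every LTP library held over 3 times the level of any control. The log2 fold change was 2.04 (SE 0.0935), a 4.10-fold difference, given as a description with no test. Within animals the log2 ratio was 1.88, 2.07 and 2.11.

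Of the other 7 genes, 1 was called at 3 hr, against 5.07% of the 17508 genes tested that rose. This was Gem, with 38.3, 42.4 and 32.9 CPM in controls and 84.6, 90.4 and 78.0 CPM in LTP libraries. No libraries overlapped between the groups, and the log2 fold change was 1.17 (SE 0.098, edgeR adjusted p = 0.00102). Within animals its log2 ratio was 1.14, 1.09 and 1.24, and the call held in every alternative run. LTP libraries lay above all controls in 3 of the 7 genes (Gem, Rrad and Rasd1), against 12.9% of all genes.

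Rrad had 2.72, 3.16 and 3.09 CPM in 3 hr controls and 3.52, 4.29 and 3.32 CPM in LTP libraries. These did not overlap, but the log2 fold change of 0.33 (SE 0.138) was not called (edgeR adjusted p = 0.230). Rem2 had 24.4 to 27.0 CPM in controls and 23.0 to 29.4 CPM in LTP libraries, with the groups overlapping and a log2 fold change of 0.02 (SE 0.0981). Rem1, at 0.281 to 0.436 CPM in controls and 0.227 to 0.317 CPM in LTP libraries, had a log2 fold change of -0.34 (SE 0.299, edgeR adjusted p = 0.562) and rested on 10 to 20 counts per library.

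Rasl11b did not pass the test at 3 hr. It had 50.7, 56.0 and 53.9 CPM in controls and 58.5, 52.0 and 75.7 CPM in LTP libraries. LTP replicate 3 was the highest and LTP replicate 2 lay among the controls (log2 fold change 0.23, SE 0.125, edgeR adjusted p = 0.351).

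Rasd1 missed the threshold narrowly, with 42.5, 42.9 and 38.0 CPM in 3 hr controls and 52.7, 44.3 and 59.5 CPM in LTP libraries. The groups did not overlap, and the log2 fold change was 0.36 (SE 0.107, edgeR adjusted p = 0.108). It was called under 6 of the alternatives, among them the animal block (edgeR adjusted p = 0.0898) and DESeq2 (adjusted p = 0.0345). Without 3 hr LTP replicate 2, both Rasd1 (0.47, edgeR adjusted p = 0.00793) and Rasl11b (0.34, edgeR adjusted p = 0.0617) were called. Without 3 hr LTP replicate 3 the log2 fold change of Rasd1 was 0.24 (edgeR adjusted p = 0.159) and that of Rasl11b 0.05 (edgeR adjusted p = 0.756). Over all alternatives the adjusted p ran from 0.00793 to 0.284 for Rasd1 and from 0.0617 to 0.756 for Rasl11b. Rasd2 had 39.1 to 42.9 CPM in controls and 39.0 to 49.2 CPM in LTP libraries, overlapping, with a log2 fold change of 0.11 (SE 0.0916). Of the 7 striatal markers 1 was called at 3 hr, Drd1, which was lower in LTP slices (2.87 ± 0.522 against 4.45 ± 0.279 CPM, SD, n = 3), and its part in the result was not tested.

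**Figure D2:**
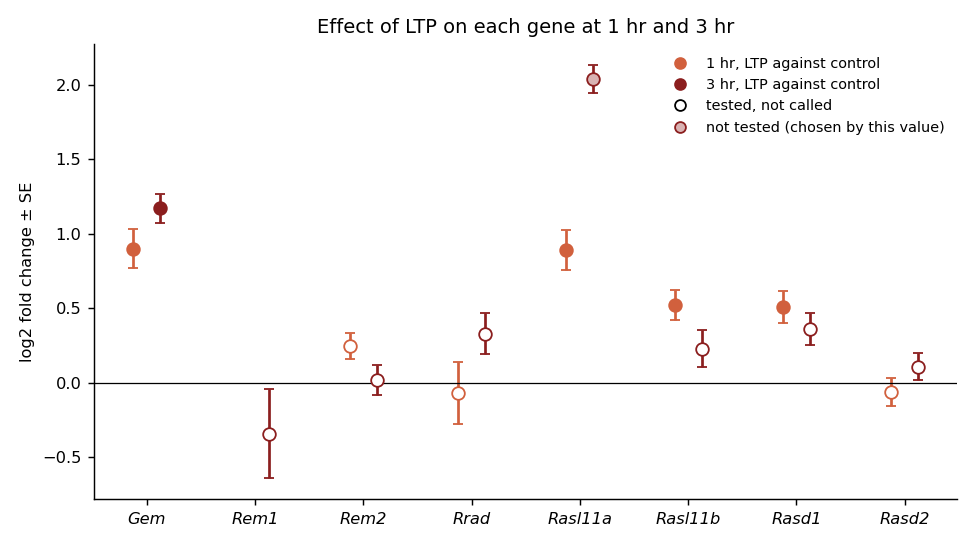
Log2 fold change of LTP against control (y axis, with SE) for each gene at 1 hr and 3 hr. Filled points were called, white points were tested and not called, and the pale point is Rasl11a at 3 hr, which was not tested. Gem lay at 0.90 and 1.17, and Rem1 has no point at 1 hr because it did not pass the filter.

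Whether an effect differed between the time points was tested as an interaction in the model of 4 groups. Of the 7 genes other than Rasl11a, 0 were called in the edgeR quasi-likelihood test, 0 had an unadjusted p under 0.05, and 0 were called with DESeq2 or limma-voom. Over all genes, 11 of 18584 (0.0592%) were called. The lowest unadjusted edgeR p was 0.0937, for Rrad, whose effect was larger at 3 hr by 0.41 on the log2 scale (SE 0.226). For Gem the difference was 0.28 (SE 0.186), for Rasl11b -0.29 (SE 0.185), for Rem2 -0.22 (SE 0.136), for Rasd2 0.18 (SE 0.139), for Rasd1 -0.15 (SE 0.174) and for Rem1 -0.68 (SE 0.707). Leaving out 1 hr control 3 moved the difference for Gem to 0.00, and leaving out 1 hr control 1 moved it to 0.46. With 1 library left out, the difference ran from 0.26 to 0.53 for Rrad and from -0.47 to -0.18 for Rasl11b. It ran from 0.07 to 0.24 for Rasd2 and from -0.34 to -0.16 for Rem2. The calls of Rasl11b and Rasd1 at 1 hr alone are thus not shown to be a difference between the time points. For Rasl11a the difference was 1.16 (SE 0.184), as a description, and 0.84 without 1 hr control replicate 3.

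The time points were also compared within each treatment, which does not separate time from animal or from the longer incubation. Between the controls, 4 of the 7 genes tested were higher at 3 hr (edgeR, called as above), against 16.1% of all genes. Gem was higher by 0.62 (SE 0.143, edgeR adjusted p = 0.0056), Rasd2 by 0.38 (SE 0.105, edgeR adjusted p = 0.0153) and Rasd1 by 0.36 (SE 0.132, edgeR adjusted p = 0.0546). Rem1 was higher by 1.36 (SE 0.521, edgeR adjusted p = 0.0627), a call that rested on 2 to 20 counts per library. It was lost with 1 hr control 2 included (0.90, edgeR adjusted p = 0.149), with DESeq2 (adjusted p = 0.107), and without 1 hr control 3 (0.64, edgeR adjusted p = 0.426), 3 hr control 2 or 3 hr control 3. The difference was 2.87 without 1 hr control 1, which had the lowest adjusted p of the alternatives (edgeR, 0.018). Rasl11b (0.26, SE 0.139) was not called (edgeR adjusted p = 0.171) but was under 4 alternatives, with an adjusted p from 0.035 to 0.450 over all of them. The call of Rasd1 was lost without 1 hr control 1 (0.21, edgeR adjusted p = 0.333) and without 3 hr control 2 (0.35, edgeR adjusted p = 0.101), and its difference was 0.61 without 1 hr control 3. Its adjusted p ran from 0.00473 to 0.333 over the alternatives. Rasl11a moved the other way, from 17.2 and 24.6 CPM in the fitted 1 hr controls to between 13.0 and 16.3 CPM in the 3 hr controls. Its log2 difference of -0.56 (SE 0.140) is a description, since the 3 hr libraries chose it, and was -0.24 without 1 hr control 3.

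Between the LTP groups, 3 of the 7 genes were higher at 3 hr, against 18.6% of all genes: Gem by 0.90 (SE 0.123, edgeR adjusted p = 0.000163), Rrad by 0.64 (SE 0.150, edgeR adjusted p = 0.00513) and Rasd2 by 0.55 (SE 0.0933, edgeR adjusted p = 0.000619). Rasd2 differed between time points in both treatments while showing no called effect of LTP. Rasl11b (-0.03, SE 0.122) and Rem2 (-0.05, SE 0.0906) were not called, and Rasl11a was higher by 0.59 (SE 0.121), with no test. Cell type markers also moved between the time points. The 6 microglial markers summed to 290 to 301 CPM in the fitted 1 hr controls and to 202 to 232 CPM in 3 hr controls, with 5 of 6 called lower, and the 6 oligodendrocyte markers to 5870 to 7360 and 7840 to 9500 CPM, with 3 called higher. The 6 mural markers summed to 162 to 164 CPM in the fitted 1 hr controls and to 112 to 121 CPM in 3 hr controls, with 4 called lower, and the 6 endothelial markers to 103 to 113 and 90.9 to 96 CPM, with 3 called lower. Among neuronal markers between the controls, 3 of 8 pyramidal markers were higher and 1 lower (Neurod6, -1.10), 1 of 7 interneuron markers was higher and 2 lower, and 1 of 4 granule cell markers was lower (Tdo2, -0.58). Of the 6 astrocyte markers 1 was higher and 1 lower, both between the controls and between the LTP groups. Over all 18584 genes, 3115 were lower at 3 hr between the controls and 3216 between the LTP groups. Between the LTP groups the microglial sum was 275 to 301 CPM at 1 hr and 187 to 214 CPM at 3 hr (5 of 6 lower), and the mural sum 136 to 151 and 112 to 117 CPM (3 lower, 1 higher). Of the other markers between the LTP groups, 3 of 6 oligodendrocyte markers were higher, 2 of 6 endothelial markers were higher and 1 lower, 3 of 8 pyramidal markers were higher and 1 lower, and 3 of 7 interneuron markers were lower. The 7 striatal markers summed to 35.7 to 39.4 CPM in fitted 1 hr controls and 39.4 to 40.5 CPM in 3 hr controls, and 0 of 7 were called between these (edgeR, also 0 at an unadjusted p under 0.05), while 1 was higher and 1 lower between the LTP groups. The part of other cell types in these differences was not tested.

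The split of each subfamily between its genes changed with the groups. Gem made up 49.3% ± 5.35 (SD, n = 2) of the summed RGK level per kb in fitted 1 hr controls and 61.2% ± 4.08 (SD, n = 3) in 1 hr LTP slices. At 3 hr it made up 56.9% ± 3.76 in controls and 74.0% ± 2.87 in LTP slices, and Rem2 36.6% ± 3.24 and 21.4% ± 3.07. Rasl11a made up 32.7% ± 3.50 of the RASL11 level in 3 hr controls and 63.2% ± 5.22 in 3 hr LTP slices, so the order of the paralogs was the reverse in these groups. At 1 hr its share was 45.9% ± 3.82 (SD, n = 2) in controls and 52.5% ± 3.20 in LTP slices. Rasd1 held 66.3% ± 2.05 of the RASD level in 3 hr controls and 70.0% ± 0.785 in 3 hr LTP slices. These shares are descriptions from the same counts and the same approximate lengths and were not tested.

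**Figure D3:**
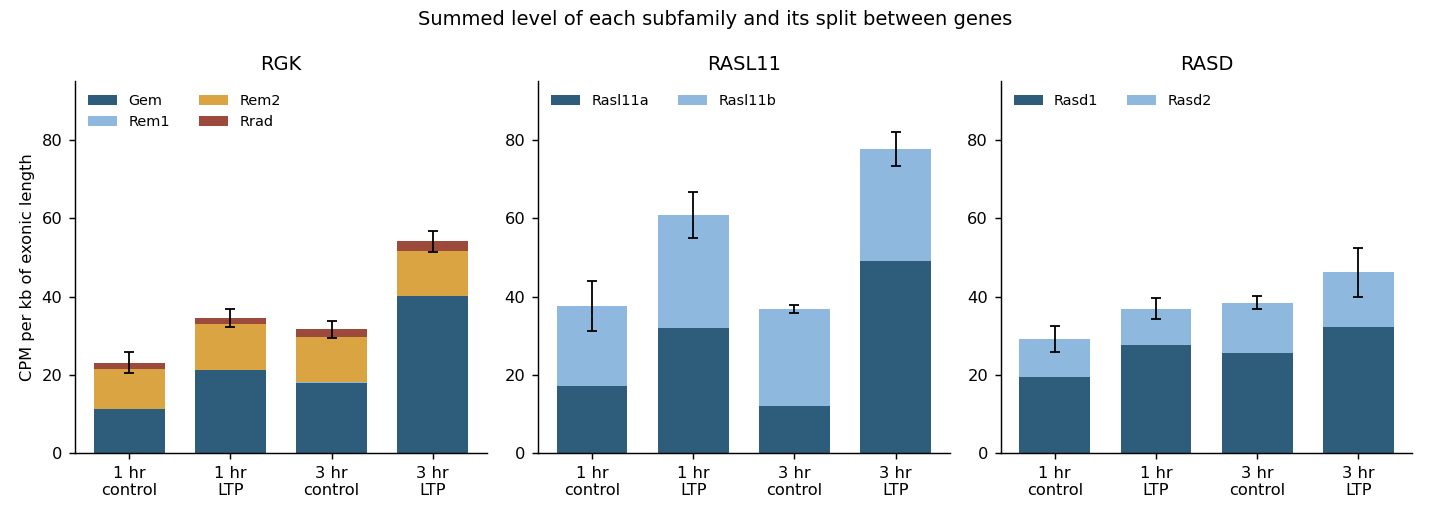
Summed level of the RGK, RASL11 and RASD genes in CPM per kb of exonic length (y axis, from 0) by group, as the mean of the fitted libraries, with the SD of the sum as a bar and the genes as colours. The RGK sum was 31.6 in 3 hr controls and 54.1 in 3 hr LTP slices, and the RASL11 sum 36.8 and 77.6. Rem1 is too low to be seen.

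Other genes of the pathways around these GTPases were counted from lists. At 1 hr 0.778% of all genes rose, so a count of 0 in a list of this size says nothing about the list. Of 18 subunits of voltage-gated calcium channels, a family whose high-voltage-activated members are the targets of RGK proteins, 17 were tested at 1 hr and 0 were called (edgeR, 2 at an unadjusted p under 0.05, also 0 with DESeq2 and limma-voom, and 1 without 1 hr LTP 3). At 3 hr 6 of 17 rose, against 5.07% of all genes, and 0 fell, with a median log2 fold change of 0.21 against 0.00 over all genes tested. All 6 are pore-forming subunits: Cacna1e (R-type) rose from 654 ± 44.7 to 926 ± 68.4 CPM (SD, n = 3, log2 fold change 0.52, SE 0.0814), Cacna1d (L-type) by 0.54 (SE 0.0978), Cacna1b (N-type) by 0.45 (SE 0.0897) and Cacna1c (L-type) by 0.43 (SE 0.096). The largest edgeR adjusted p of these 4 was 0.0464, and Cacna1i and Cacna1g were the other two. These last are T-type subunits, low-voltage-activated channels that are not established RGK targets. None of the 4 beta subunits, to which RGK proteins bind, was called at either time, and their log2 fold changes at 3 hr ran from -0.14 (Cacnb4) to 0.20 (Cacnb1). The count of 6 moved with the library left out, as did calls over all genes: it was 1 without 3 hr control 1, 0 without 3 hr control 2, 3 without 3 hr control 3, 1 without 3 hr LTP 1 and 9 without 3 hr LTP 2. In the same fits the share of all genes that rose was 1.5%, 1.18%, 2.08%, 1.65% and 9.32%, in that order. The interaction called 0 of 17 (edgeR, 6 at an unadjusted p under 0.05, lowest adjusted p 0.387).

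**Figure D4:**
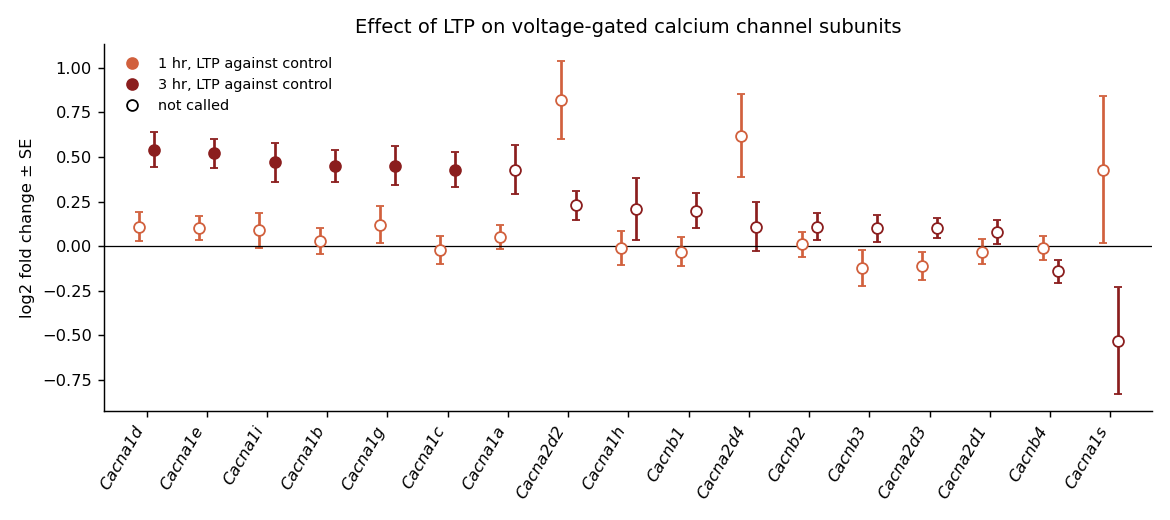
Log2 fold change of LTP against control (y axis, with SE) for the 17 tested subunits of voltage-gated calcium channels at 1 hr and 3 hr, in the order of the 3 hr values. Filled points were called. The 6 called subunits lay between 0.43 and 0.54 at 3 hr and between -0.02 and 0.12 at 1 hr.

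Of 15 genes of RNA polymerase I and its initiation factors, 0 were called at 1 hr (edgeR, 0 at an unadjusted p under 0.05, 0 with DESeq2 and limma-voom). At 3 hr 1 rose, the initiation factor subunit Taf1a, by 0.46 (SE 0.0939, edgeR adjusted p = 0.0346), with a list median of -0.06. This share is near the 5.07% of all genes that rose and is no result about the list. Of 10 partners of RASD proteins, 0 were called at 1 hr (edgeR, 1 at an unadjusted p under 0.05, 0 with DESeq2 and limma-voom). At 3 hr 1 rose, the neuronal nitric oxide synthase Nos1, by 0.32 (SE 0.0814, edgeR adjusted p = 0.0706), so 1 of 10 stands against 5.07% of all genes and is no result about the list. The count of the RNA polymerase I list was 0 without 3 hr control 1, 3 hr control 2 or 3 hr LTP 1 and 2 without 3 hr LTP 2. The count of the RASD partners was 0 without any of the 3 hr controls, 3 hr LTP 1 or 3 hr LTP 3, and 2 without 3 hr LTP 2.

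Of 27 other Ras-family GTPases, 25 were tested. At 1 hr 0 were called (edgeR, 3 at an unadjusted p under 0.05, 0 with DESeq2 and limma-voom), and at 3 hr 0 rose and 2 fell, Rasl10a by 0.35 and Rhebl1 by 0.46 on the log2 scale. Over all 17508 genes 888 rose and 267 fell. Rasl10a had 27.6 ± 1.16 CPM in 3 hr controls and 21.4 ± 0.836 CPM in 3 hr LTP slices (SD, n = 3, edgeR adjusted p = 0.036), and Rhebl1 5.32 ± 0.568 and 3.84 ± 0.260 CPM (SD, n = 3, edgeR adjusted p = 0.0755). Without any of the 3 hr controls, or without 3 hr LTP 1, the count was 0, and without 3 hr LTP 3 it was 4. The median log2 fold change of this list was -0.07 at 1 hr and -0.10 at 3 hr.

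Between the time points 6102 of all 18584 genes were called in the controls, 2987 higher (16.1%) and 3115 lower at 3 hr, and members of the lists given here were among them in both directions. Of the calcium channel subunits, 3 were higher and 1 was lower in 3 hr than in 1 hr controls, among them the T-type subunits Cacna1i (log2 difference 0.54, SE 0.124), Cacna1g (0.44, SE 0.126) and Cacna1h (0.50, SE 0.172) and, lower, Cacna2d1 (-0.35, SE 0.0737). Between the LTP groups 8 were higher, against 18.6% of all genes, and 1 was lower at 3 hr, against 3216 of all 18584 genes. Between the controls 5 of the other Ras-family genes were higher and 5 lower at 3 hr, with the smallest p in Rasl10a (0.55, SE 0.0852) and Rala (-0.41, SE 0.0713), and of the RNA polymerase I list 3 were higher and 1 lower between the controls, with the smallest p in Taf1c (0.68, SE 0.141). Of the RASD partners, also between the controls, the iron transporter Slc11a2 was higher (0.48, SE 0.0653) and Becn1, an autophagy gene, lower (-0.28, SE 0.0757).

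The genes most like a called gene in level were found by the Pearson correlation of log2(CPM + 0.1) over the 12 libraries. They came from 14184 other genes averaging 1 CPM or more, or 14185 for Rem1, which itself lay below that level. These libraries share treatment, time point and scaling, so the values describe likeness of pattern and carry no test. Gem was most like Il6 (r = 0.985), a cytokine, and Cyp1b1 (0.981), a cytochrome P450, followed by 4930402H24Rik (0.976). Rasl11a was most like Ccn1 (0.963), a secreted matrix protein, Cwc25 (0.959), a splicing factor, and Klf4 (0.953), a transcription factor. Rasl11b was most like Ier2 (0.917), an immediate early gene, Trib1 (0.911) and then Rasd1 itself (0.887). Rasd1 was most like Rel (0.968), a subunit of NF-kB, Ier2 (0.955) and the microRNA gene Mir132 (0.955). Rrad was most like Slc11a1 (0.924), Cdc6 (0.921) and Kcnk10 (0.913), and Rasd2 like Kdm2b (0.988), Slc45a4 (0.987) and Ntng2 (0.986). Rem1, at its few counts, was most like Rhpn1 (0.947), Mvp (0.936) and Megf11 (0.925). Gem and Rasl11a had an r of 0.797 with each other, and Rasl11a and Rasl11b 0.566.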

How the data were processed

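Total RNA depleted of ribosomal RNA was sequenced (stranded, paired-end), and the authors aligned reads to GRCm38/mm10 with STAR and deposited raw counts per gene, 1 table per time point. Their notes also name DESeq2. Of 41091 gene IDs, 40217 matched GENCODE M21 by stable ID, and 2 of the 8 genes carried the same version there. Counts were tested with edgeR 4.0.16 in R 4.3.3 (filterByExpr, TMM, quasi-likelihood F test, Benjamini-Hochberg over all genes tested), at 1 hr with 5 libraries, at 3 hr with 6 and across times with 11. Calls used the study's thresholds, a fold change over 1.2 with an adjusted p below 0.1 (for the interaction the adjusted p alone). The tests were checked on simulated data, where the share of false calls at 1 hr and 3 hr averaged somewhat above the nominal level, which bears on calls near the threshold. The members, gene lists and rules were chosen with earlier results of these data known, and the motif set after the files were read. Named were the 8 genes, called members of each list (up to 4 with the smallest p), the 3 genes most like each called gene, Arc, Fos and Hprt. A further list, of other proteins that bind RGK proteins, is not reported here. Alternatives were DESeq2 1.42.0, limma-voom (limma 3.58.1), other scalings and filters, an animal block, all 4 groups in 1 model, 1 hr control 2 included and each library left out. Per the labels the replicate number is the animal. Across genes, the deviations of its LTP and control libraries from their group means had correlations of 0.00293, -0.281 and 0.0963 in the 1 hr animals. In the 3 hr animals they were 0.101, 0.0108 and 0.328. The mean of the 1 hr controls included control 2, the outlier, which shifts the deviations of the other controls. Mismatched pairs were not computed, so these values do not show how far the pairs deviated together. The pairing itself is given by the labels and the study's methods. Replicates differed by more than counting noise. Counting error covers sequencing only, and the spread between libraries set the precision.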

Additional observations from a re-analysis of the deposited data

Results flagged for a closer look

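The effect of LTP on Rasl11a was larger at 3 hr than at 1 hr by 1.16 on the log2 scale. It stands out as a difference between time points, but the gene was chosen for it, so no test is given.

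For Rrad the log2 ratio of LTP to control was below 0 in both 1 hr animals with a fitted control and above 0 in all 3 animals of 3 hr, which were taken to be different animals. The mean log2 ratio of LTP to control within animals was -0.18 at 1 hr (-0.08 and -0.28) and 0.30 at 3 hr (0.36, 0.43 and 0.10). The interaction in the model of 4 groups was not called (edgeR adjusted p = 0.839), the 1 hr effect in the edgeR fit was 0.05 without 1 hr control 3, and 1 hr control 2, left out here, gave -0.02 with its LTP partner.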

How the results depend on the processing

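The number of the 7 tested genes called at 1 hr was 4, and 2 in the model of the 4 groups and from 2 to 4 with 1 library left out. At 3 hr 1 of 7 was called, and 2 with DESeq2, total counts, no filter beyond 1 count, the replicate block (animal) or the model of the 4 groups, and from 1 to 3 with 1 library left out. Between controls 4 were called, 5 with total counts or no filter, 3 with DESeq2, with 10 counts required in every library or with 1 hr control 2 included, and from 2 to 5 with 1 library left out. Between LTP groups and in the interaction the counts stayed at 3 to 4 and at 0. With the replicate block at 1 hr the count was 4. Some uncalled values changed sign: at 1 hr Rasd2 (0.01 with the replicate block, and -0.12 to 0.01 with 1 library left out) and Rrad (-0.19 to 0.05 with 1 left out), at 3 hr Rem2 (0.00 with total counts and with no filter, and -0.09 to 0.09 with 1 left out), in the interaction Rem1 (-2.18 to 0.05) and Rasd1 (-0.39 to 0.01) with 1 left out, and between LTP groups Rem2 (-0.14 to 0.04) and Rasl11b (-0.19 to 0.10) with 1 left out. The cause was not tested. Of the log2 fold changes of single genes under an alternative, 619 kept their direction and side of the threshold, 13 lost and 12 gained a call, 14 changed sign and 2 moved by over 1 SD. The replicate block changed no call other than that of Rasd1 at 3 hr and, with 1 hr control 2 included, of Rasl11b at 1 hr. It was not run between time points, because animals are nested in a time point. A fit with 1 control left at 1 hr takes that control to vary like the other group. Of the 8 genes Rem1 alone had libraries with 20 counts or fewer, which limits its values.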
